A study of Caenorhabditis elegans with 2 samples.

Results

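The genome of the nematode Caenorhabditis elegans holds a pair of 14-3-3 genes, ftt-2 and par-5, and the binding of NHR-11 around both was examined by chromatin immunoprecipitation followed by sequencing (ChIP-seq). These 2 genes were taken out of 46890 annotated genes, and they were chosen on their measured peak signals in these data. All signals, ranks and counts at ftt-2 and par-5 are therefore given as a description with no test. A peak was counted for a gene when its summit, the base of the highest signal, lay inside the gene or within 2000 bp of it. By this rule the 2 genes together held 3 of 9931 peaks of the list called from both replicates pooled. They held 4 of 25795 peaks of replicate 1 and 9 of 29222 peaks of replicate 2.

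NHR-11 belongs to the nuclear hormone receptors, transcription factors that bind DNA through a zinc-finger domain. The samples were 2 biological replicates of strain OP305 in the late embryonic stage, both sexes mixed, taken as whole organisms of unknown age. The strain carries the unc-119(ed3) III allele and wgIs305, an integrated transgene that encodes NHR-11 joined to the fluorescent protein eGFP, so every sample carried the tagged protein's gene. Nothing in the labels gives the promoter or copy number of the transgene, and the antibody is listed as nhr-11. Both replicates form 1 group, and there was no other genotype, stage or treatment to compare with. Because the embryos were whole, more cells with a bound site and more binding per cell cannot be told apart.

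14-3-3 proteins are small dimeric adaptors that grip phosphorylated serine or threonine motifs in other proteins and thereby hold them in place, mask a site or change their partners. In C. elegans, FTT-2 is known for binding the phosphorylated FOXO factor DAF-16, which keeps that factor in the cytoplasm under insulin signalling, and for acting with the deacetylase SIR-2.1. PAR-5 is known for the anterior-posterior polarity of the zygote, where it helps to keep the cortical PAR proteins in separate domains, and it also takes part in DNA damage and germline checkpoints.

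The stretch of DNA that carries the strongest peak is shown first, because the summits of both upstream peaks of ftt-2 lie within it. It covers chrX:11605874-11606173 on WBcel235 (ce11), read on the minus strand, on which ftt-2 lies. Capitals mark the 21 bases centred on each of the 2 pooled summits: the first run belongs to the weaker peak and the second, nearer to ftt-2, to the stronger one. The other stretch is the whole gap of 281 bases between par-5 and the divergent gene M117.3, chrIV:11821925-11822205, also on the minus strand. It is shown because it directly adjoins the 5′ end of the paralogue. This gap lies nearer to its gene than the ftt-2 stretch does, so the 2 are not matched by distance. There the capitals mark the 21 bases around the one summit in the gap, found in replicate 2 alone. Both sequences are from the RefSeq WBcel235 genome.
ftt-2 upstream site: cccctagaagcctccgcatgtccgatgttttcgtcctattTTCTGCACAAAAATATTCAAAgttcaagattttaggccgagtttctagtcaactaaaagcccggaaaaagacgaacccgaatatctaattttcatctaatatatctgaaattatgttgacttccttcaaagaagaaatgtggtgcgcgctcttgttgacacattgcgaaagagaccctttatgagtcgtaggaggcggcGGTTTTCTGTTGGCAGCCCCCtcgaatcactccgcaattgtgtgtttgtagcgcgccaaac
par-5 upstream gap: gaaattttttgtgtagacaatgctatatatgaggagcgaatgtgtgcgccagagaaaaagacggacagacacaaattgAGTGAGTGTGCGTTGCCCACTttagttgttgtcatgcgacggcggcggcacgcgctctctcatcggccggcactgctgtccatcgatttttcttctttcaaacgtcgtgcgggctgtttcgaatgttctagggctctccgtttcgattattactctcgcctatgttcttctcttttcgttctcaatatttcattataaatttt

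The 2 upstream stretches, which are not matched by distance, share no run longer than 10 bases, on the same strand or on opposite strands. Both 14-3-3 genes lie on the minus strand and are short. ftt-2 (WBGene00001502) covers chrX:11603708-11605419, which is 1712 bp, and its 2 annotated transcripts, F52D10.3a.1 and F52D10.3c.1, have 4 exons and encode 248 residues each. par-5 (WBGene00003920) covers chrIV:11820506-11821924, which is 1419 bp. Of its 5 annotated transcripts, 4 encode a protein of 248 residues, and M117.2b.1 encodes 126 residues.

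The coding parts, unlike the 2 upstream stretches printed above, are close relatives. The FTT-2 protein of transcript F52D10.3a.1 matched PAR-5 at 213 of 247 aligned residues (86.2%), and that of F52D10.3c.1 matched at 196 of 247 (79.4%). The 2 FTT-2 proteins matched each other at 224 of 248 residues (90.3%). In the coding bases, identity to par-5 was 79.6% for F52D10.3a.1 and 75.0% for F52D10.3c.1, and the longest identical run with par-5 was 19 and 17 bases. Because shared sequence can let fragments of one locus align at the other, the loci were compared by BLAST. Between the 2 genes with their flanks, 5 matches of 56 to 175 bp were found, at 81.6% to 87.5% identity, and 0 reached 90% over 50 bp. The match of 56 bp, at 87.5%, joined ftt-2 to a part of M117.3 upstream of par-5. None of the upstream peaks of ftt-2, in the pooled list or in either replicate, had a match elsewhere in the genome at an E-value of 0.001.

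The strongest peak at ftt-2 lay upstream of its 5′ end and was among the strongest in every list. In the pooled list its summit at chrX:11605924 stood 505 bp upstream of ftt-2, in a peak from 11605746 to 11606101, with a signal of 130.0. Signal is the authors' deposited peak height in the unit of their caller, and it is compared here by rank within a list. This peak ranked 3 of 9931, between neighbours in rank of 157 and 127, and it was 5.02 times the list's median of 25.9. Its false discovery rate was 0.0189, the lowest in the list and shared by 27 peaks. This rate was read from a deposited −log10 column by the format and values of that column, since no source used here names the caller.

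Both replicates showed the site on their own. In replicate 1 the summit at chrX:11606026 stood 607 bp upstream, with a signal of 60.6 and rank 5 of 25795. In replicate 2 the strongest summit, at chrX:11605928, stood 509 bp upstream, with a signal of 69.3 and rank 4 of 29222. The mean of the 2 signals was 64.9 ± 6.15 (SD, n = 2). These signals were 4.74 and 6.46 times the medians of their lists, 12.8 and 10.7, and their false discovery rates were 0.0222 and 0.011. On chromosome X the site ranked 1 of 2032 pooled peaks, 3 of 5116 in replicate 1 and 1 of 5734 in replicate 2.

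The strongest peaks of both replicates had similar signals at this site. The log2 ratio of the strongest replicate 1 signal to the strongest replicate 2 signal was −0.19. Over the 100 peaks of the authors' thresholded list that overlapped a peak in both replicates, that ratio had a median of 0.16, an SD of 0.71 and a range of −1.50 to 1.88, and 17 of them lay nearer to 0 than ftt-2. The thresholded list holds 101 peaks, which are the 101 strongest of the pooled list. The pooled signal at ftt-2 was 1.0 times the sum of the strongest replicate signals. Over the same peaks the median was 0.996 and the range 0.838 to 1.2. The replicate signals carry no stated scaling to each other, so a difference in depth, which is unknown, is part of any such ratio. With signals scaled within each list in 2 ways, the log2 ratio at ftt-2 was −0.45 and −0.41. Replicate 1 held 1 upstream peak here and replicate 2 held 2, with summed signals of 60.6 and 90.9.

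**Figure D1:**
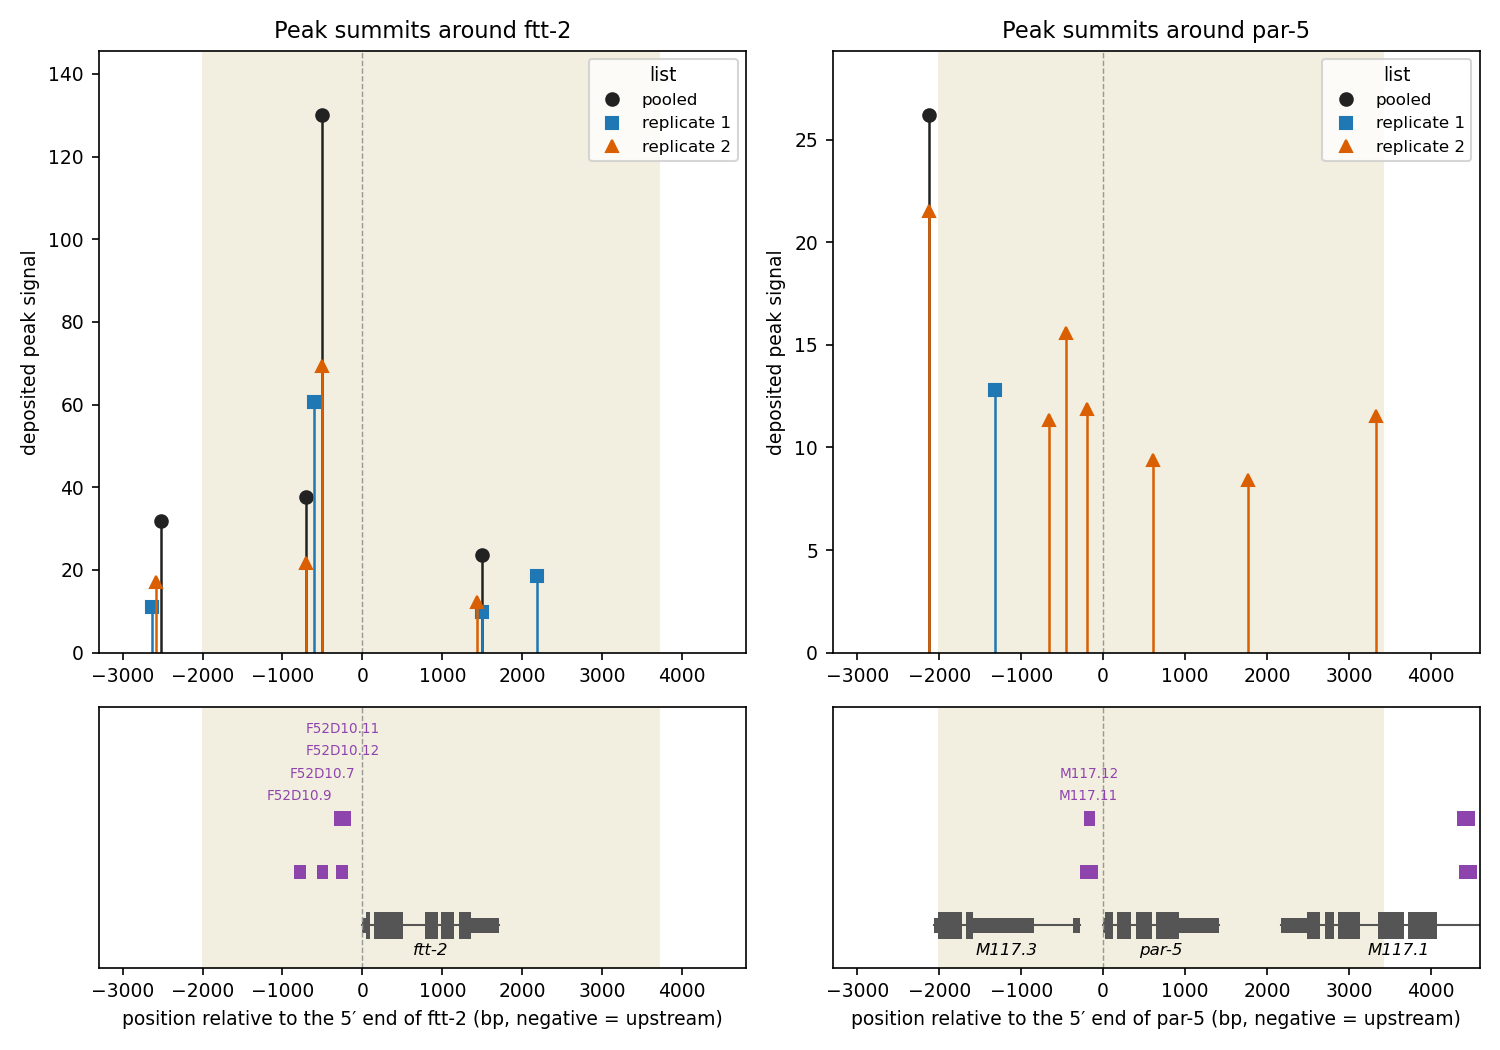
Peak summits (upper panels, deposited signal on the y axis, with a separate scale for each gene) and gene models (lower panels, coding exons tall, untranslated exons low, noncoding RNA genes purple) against distance in bp from the 5′ end of ftt-2 (left) and par-5 (right); the shaded span is the gene with 2000 bp on both sides, black marks are the pooled list and coloured marks the replicates. Inside the shaded span the upstream summits of ftt-2 stand close together at 505 to 709 bp in all 3 lists and reach 130.0. Farther upstream, outside the span, each list has a weaker summit, the pooled one at 2522 bp with 31.8. The summits around par-5 are scattered, and the pooled one, at 26.2, lies outside the shaded span.

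A weaker peak accompanied the strong one. Its pooled summit, at chrX:11606123, stood 704 bp upstream of ftt-2 and 199 bp from the stronger summit, with a signal of 37.6, rank 823 and a false discovery rate of 0.410. Replicate 2 held the same pair: its weaker summit at chrX:11606128 had a signal of 21.6, rank 639, and stood 200 bp from the stronger. The weaker signal was 0.289 times the stronger in the pooled list and 0.312 times in replicate 2. Replicate 1 held 1 peak where the other lists held 2. Its summit lay between the pooled pair, 102 bp from the stronger and 97 bp from the weaker, and its peak overlapped both, by 261 and 266 bp.

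The spacing of the pair is close to the smallest that occurs in these lists. The closest neighbouring summits in each of the 3 lists were 199 bp apart. Peaks had 1 fixed width per list, 370 bp in replicate 1 and 356 bp in replicate 2 and the pooled list. Of 280 pooled neighbours closer than 356 bp, 85 (30.4%) were 195 to 205 bp apart, as were 411 of 1692 in replicate 1 and 460 of 1830 in replicate 2. Of the 101 thresholded peaks, 20 were overlapped by a weaker pooled peak, 8 of them with summits 195 to 205 bp apart. In these 20 the weaker signal was 0.209 to 0.931 times the stronger, with a median of 0.418, so the ratio at ftt-2 lay inside this range and below its median. Whether the pair marks 2 contacts or 1 broad site called as 2 peaks was not tested.

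**Figure D2:**
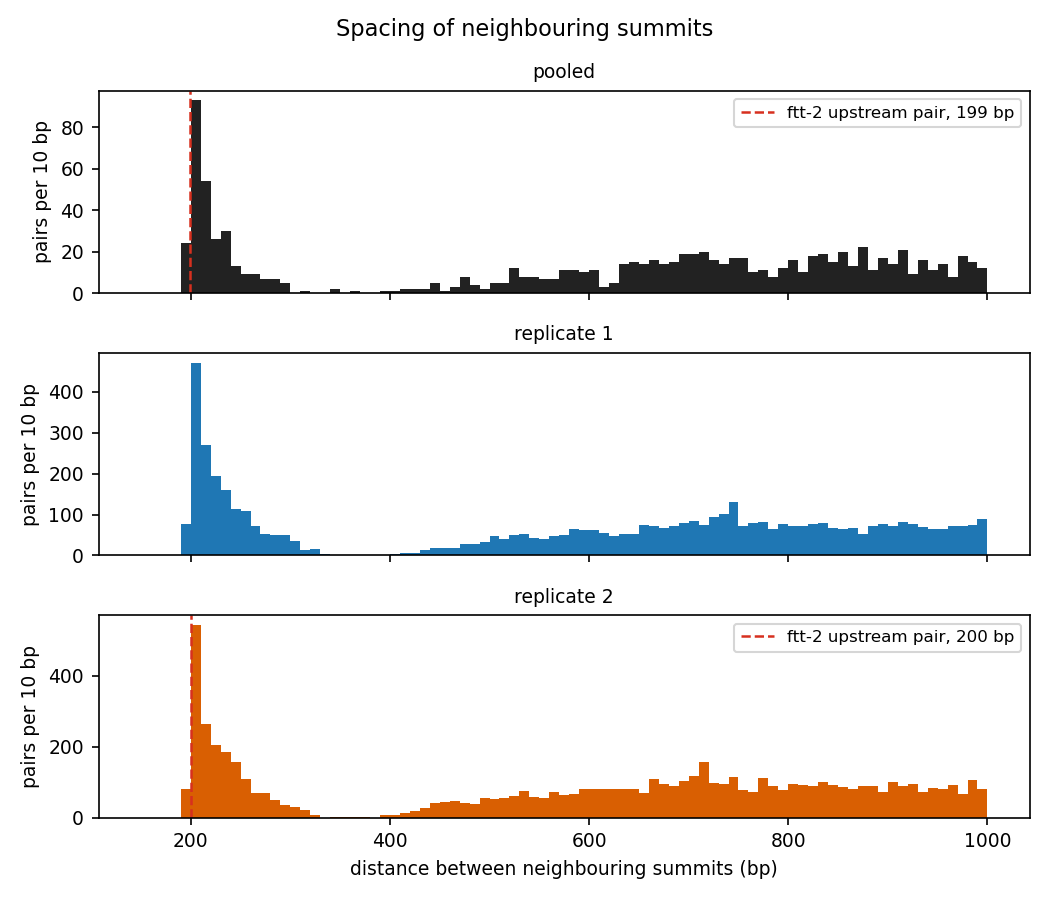
Number of neighbouring summit pairs (y axis, per 10 bp) against the distance between them (x axis, bp) in the pooled list and both replicates. The dashed red line marks the ftt-2 upstream pair, at 199 bp in the pooled list and 200 bp in replicate 2, at the short end of the peak of close pairs in each list; replicate 1 has 1 summit there and no line.

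A set of 4 short noncoding RNA genes lies between ftt-2 and its upstream peaks or under them, and no role is given for any of them in the sources used here. The strong pooled summit fell inside the exon of F52D10.7 (chrX:11605853-11605989, minus strand, 137 bp), 65 bp into the transcript from its 5′ end, and the strong replicate 2 summit fell 61 bp into it. The replicate 1 summit lay outside F52D10.7, 37 bp upstream of its 5′ end. The strong pooled peak also overlapped F52D10.12 (chrX:11605558-11605779, minus strand, 222 bp), whose 5′ end was 145 bp from the summit.

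The weaker summits stood beside another of these genes. F52D10.9 (chrX:11606129-11606277, minus strand, 149 bp) began 6 bp from the weaker pooled summit and 1 bp from the weaker replicate 2 summit, counted from its 3′ end. F52D10.11 (chrX:11605596-11605744, plus strand, 149 bp), which overlaps F52D10.12 on the other strand, held no summit in any list and was not overlapped by either upstream pooled peak. Of the F52D10 noncoding RNA genes here, 1 of 4 held a thresholded summit inside it, and 7 of 7764 annotated noncoding RNA genes of that class (0.0902%) did so. These 4 genes were taken because they lie at a site chosen on its signal. The choice fixed their share in advance, so the 2 shares are not a comparison. The next protein-coding genes are far away, with F52D10.2 beginning 11987 bases beyond the 3′ end of ftt-2 and F52D10.4 beginning 12050 bases beyond its 5′ end. ftt-2 was thus the one protein-coding gene within 2000 bp of its upstream summits.

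The third pooled peak at ftt-2 was weak and lay in its 3′ UTR. Its summit at chrX:11603926 had a signal of 23.5, rank 7309 of 9931 and a false discovery rate of 0.909. Replicate 1 had a summit at the same base with a signal of 9.81 and rank 24864, and replicate 2 had one 62 bp away, at chrX:11603988, with a signal of 12.4 and rank 9361. These are in the lower part of the pooled and replicate 1 lists. The replicate 2 peak had 1 match elsewhere, of 67 bp at 83.6% identity, which lay at the par-5 locus. Replicate 1 held 1 more summit, 479 bp beyond the 3′ end at chrX:11603229, with a signal of 18.5 and rank 3391, and no peak of replicate 2 or of the pooled list overlapped it.

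All 3 pooled peaks of ftt-2 overlapped a peak in both replicates by at least 1 bp, as did 6182 of all 9931 pooled peaks (62.2%). With summits required to lie within 100 bp, 2 of the 3 did so. The strong upstream peak was left out, because its replicate 1 summit lay 102 bp away. The strong upstream peak was the one peak at ftt-2 that the authors' thresholded list kept. Across 19973 protein-coding genes, 46.9% had a pooled summit within the same window, 79.3% a replicate 1 summit and 83.0% a replicate 2 summit, so a peak of some kind near a gene was common. A thresholded summit was found near 0.911% of protein-coding genes, ftt-2 among them. At least 3 pooled summits, the count at ftt-2, were found near 5.49%.

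**Figure D3:**
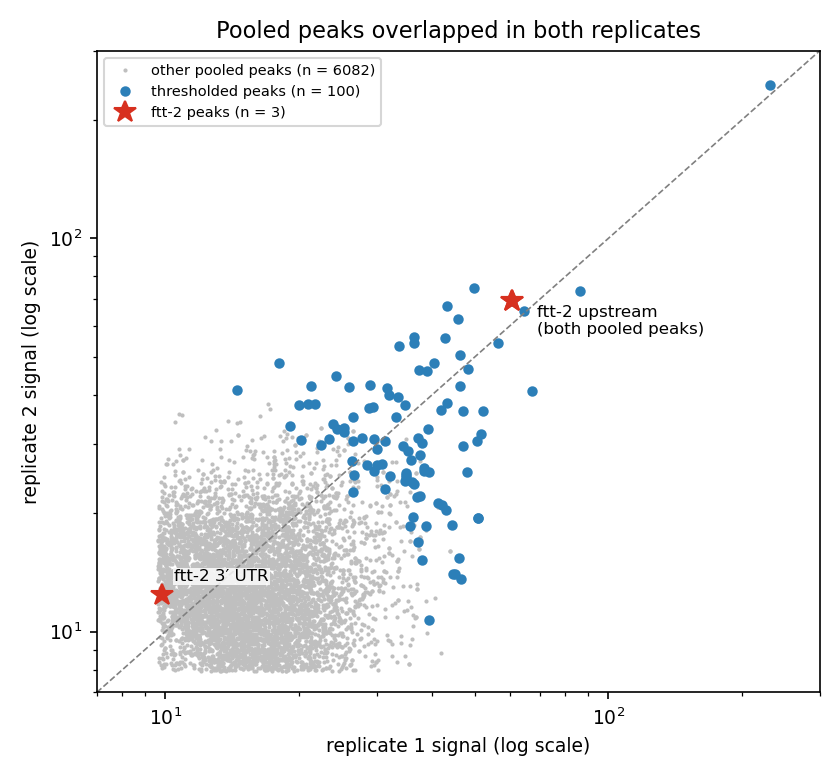
Replicate 1 signal (x axis, log scale) against replicate 2 signal (y axis, log scale) for the pooled peaks that overlapped a peak in both replicates, taking the strongest overlapping peak; blue marks the thresholded peaks, red stars the ftt-2 peaks, and the dashed line equal signals. Both upstream peaks of ftt-2 fall on the same star near the line, at 60.6 and 69.3, because they overlap the same strongest replicate peaks, and the 3′ UTR peak lies in the lower left at 9.81 and 12.4.

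The edge of the window left out 1 further pooled peak near ftt-2. Its summit at chrX:11607941 stood 2522 bp upstream, with a signal of 31.8 and rank 1934. Replicate 1 gave 11.03 there (rank 19183) and replicate 2 gave 17.0 (rank 2401). The farthest upstream summit inside the window was the one at 709 bp in replicate 2, and no upstream peak of ftt-2 stood close to the 2000 bp limit.

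At par-5 no pooled peak had its summit in the gene or within 2000 bp, and neither did a thresholded peak. Replicate 1 had 1 summit, and replicate 2 had 6, and none of the replicate 1 peaks overlapped one of replicate 2. The replicate 1 summit, at chrIV:11823244, stood 1320 bp upstream of par-5 in an exon of M117.3, with a signal of 12.8, rank 12924 of 25795 and a false discovery rate of 0.849. That signal is about the median of its list. The strongest of the 6 summits in replicate 2, at chrIV:11822381, stood 457 bp upstream in an intron of M117.3, with a signal of 15.6, rank 3713 of 29222 and a false discovery rate of 0.561.

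The other 5 summits of replicate 2 had signals of 8.44 to 11.9 and ranks of 10749 to 25933. The one in the gap printed above, at chrIV:11822117, stood 193 bp upstream, inside the overlapping noncoding RNA genes M117.11 and M117.12, with a signal of 11.9. The next upstream, at 656 bp, had a signal of 11.4. A summit at chrIV:11821313 lay in an intron of par-5 with a signal of 9.37, and its peak had 3 matches elsewhere, 2 of them at the ftt-2 locus and 1 elsewhere that reached 90% over 50 bp. Beyond the 3′ end, a summit at 345 bp had a signal of 8.44, and one at 1913 bp, in an intron of M117.1, had 11.5. These values are near the median of the replicate 2 list or below it. Unlike the upstream peaks of ftt-2, some peaks at par-5 held repeated sequence: the replicate 1 peak had 266 matches elsewhere, and the replicate 2 peaks 345 bp and 1913 bp beyond the 3′ end had 1963 and 174, none at 90% over 50 bp. The 3 replicate 2 peaks upstream of par-5 had 0.

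The neighbourhood of par-5 is denser than that of ftt-2. M117.3 begins 281 bases upstream on the opposite strand, so that a summit in the gap lies before both genes, and M117.1 ends 747 bases beyond the 3′ end of par-5. Among protein-coding genes, 25.9% had summits in both replicates and none in the pooled list, as par-5 did, and 4.98% had at least 6 summits in replicate 2. Among the 6208 protein-coding genes of 1000 to 2000 bp, the range that holds the lengths of both ftt-2 and par-5, 38.9% had a pooled summit. The pooled peak just outside the window stood 2128 bp upstream of par-5, at chrIV:11824052, with a signal of 26.2, rank 4731 and a false discovery rate of 0.842. Replicate 2 gave 21.5 at that place (rank 650), and replicate 1 had no overlapping peak.

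**Figure D4:**
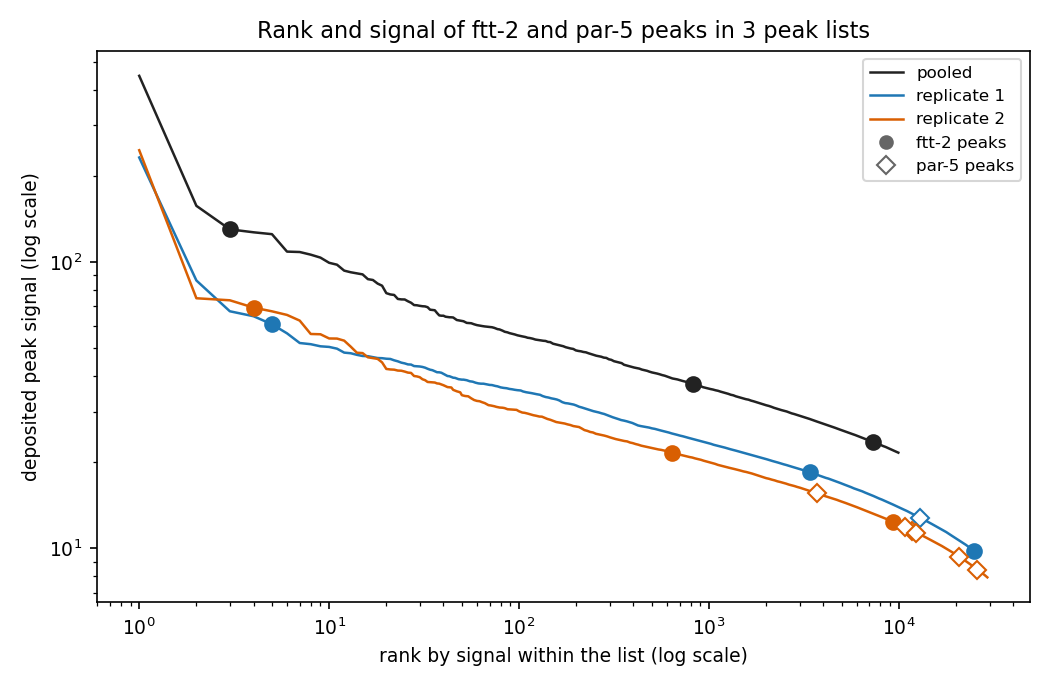
Deposited peak signal (y axis, log scale) against rank within its list (x axis, log scale) for the pooled list (black), replicate 1 (blue) and replicate 2 (orange); filled circles are ftt-2 peaks and open diamonds par-5 peaks. One ftt-2 peak per list stands at ranks 3 to 5, and the par-5 peaks, present in the replicate lists alone, start at rank 3713.

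The upstream sites of ftt-2 were richer in G and C than most peaks. In the 301 bases around the summit, GC content was 39.9% at the stronger and 42.5% at the weaker pooled site, and it was 44.2% at the replicate 1 summit between them. The median was 33.9% over all pooled peaks, with the middle part of the distribution from 29.9% to 38.5%, and 36.9% over the thresholded peaks. At par-5 the replicate 1 summit had 48.5%, and the 6 replicate 2 summits ranged from 32.2% to 47.5%, with 47.2% in the gap.

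None of 6 short motifs, searched on either strand up to 150 bp from the summit, occurred at the upstream sites of ftt-2 in any list. The nuclear receptor half-site AGGTCA was found in 6.82% of all pooled peaks in a window of that length, and GGGTCA in 4.52%. The DAF-16 element GTAAACA was found in 3.92% and the E-box CACGTG in 4.37%. More common were the GATA-type TGATAA, in 26.2%, and GAGAGA, in 20.0%. TGATAA occurred once at the 3′ UTR peak of ftt-2 in each list. Around the replicate 2 summit in the gap upstream of par-5, GAGAGA occurred once, inside the gap. TGATAA also occurred once around that summit, at chrIV:11822222-11822227, which is beyond the printed gap and inside M117.3. A missing match says only that these letters are not in this window.

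Genes whose pattern of signals was nearest to that of each 14-3-3 gene were found by the Euclidean distance of their strongest log2 signals within 2000 bp. For ftt-2, compared over the pooled and both replicate lists with 8661 genes, the nearest were nspc-16, nspc-17 and nspc-18, members of a nematode-specific peptide family. They share 1 site on chromosome X with signals of 127 pooled, 64.6 in replicate 1 and 65.3 in replicate 2, at a distance of 0.13. Next came acs-19, a fatty acid CoA synthetase family gene, and rpl-3, which encodes a ribosomal protein, at a distance of 0.31. These share 1 site on chromosome III with signals of 125, 49.8 and 74.7.

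For par-5, which has no pooled value, 13837 genes were compared over the replicate lists. Its 2 values, 12.8 in replicate 1 and 15.6 in replicate 2, come from peaks at different places that do not overlap. Nearness to them therefore describes no shared site. The nearest were fem-1, a sex determination gene, at 0.0076, ZC239.22 at 0.0078, anat-1 at 0.0089, F35A5.1 at 0.011 and the collagen gene col-55 at 0.012. Of the 5, fem-1, ZC239.22 and anat-1 had a pooled summit, at 28.3, 22.6 and 23.4, and F35A5.1 and col-55 had none.

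A list of 48 genes, chosen with earlier results of these data known, was described next. It holds genes known for 14-3-3 binding or for the pathways in which ftt-2 and par-5 act. All are called partners here, although binding is not claimed for each. Of these, 31 had a pooled summit within 2000 bp (64.6%, against 46.9% of all protein-coding genes), 48 had one in replicate 1 (100%, against 79.3%) and 47 in replicate 2 (97.9%, against 83.0%). A thresholded summit was found at 2 of 48 (4.17%, against 0.911%). The median of the strongest pooled signal was 29.4 over the 31 genes and 27.3 over all protein-coding genes with a summit. The listed genes were longer, with a median length of 7372.5 bp against 2027 bp, and the part of length in these shares was not tested. The signal at ftt-2 was 2.03 times the highest in the list. This ratio is not a comparison, because ftt-2 was chosen on its signal.

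In the insulin and SIR-2.1 group, 7 of 15 genes had a pooled summit (46.7%), close to the 46.9% of all protein-coding genes. The groups were formed after the values were seen, and their shares are read against that same background. That background holds genes of all lengths, and the part of length in the group shares was not tested. The highest was daf-16, the FOXO factor that FTT-2 binds, with a signal of 64.0 and rank 45 at a site inside the gene, far downstream of its 5′ end. The replicates gave 46.5 and 13.6 there, a wider gap than at ftt-2. Among the genes that act upstream of DAF-16, the receptor gene daf-2 had 24.0 and the PI3 kinase adaptor gene aap-1 had 26.2. The kinase genes age-1, pdk-1, akt-1, akt-2 and sgk-1 had no pooled summit, nor did sir-2.1, hcf-1 and hsf-1, and all 8 had summits in both replicates. Of all protein-coding genes, 79.3% had a summit in replicate 1 and 83.0% in replicate 2, and 25.9% had both with none in the pooled list.

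Embryonic polarity, the setting in which par-5 is best known, had a pooled summit at 8 of 10 genes (80.0%, against 46.9%), with signals of 23.2 to 34.5 and 0 thresholded. Their median was 27.3, the same as the 27.3 over all protein-coding genes with a summit. The highest of them was at par-1, a cortical kinase gene, and par-3 and mex-6 had none. In the cell cycle group, 2 of 4 genes (50%) had a pooled summit. Of these, wee-1.3, which encodes a kinase that restrains CDK-1, had 59.4 at rank 68, 384 bp upstream. The signals there were 28.5 in replicate 1 and 26.6 in replicate 2. Ras and MAP kinase genes had 4 of 8 (50%), with signals of 25.0 to 30.8.

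The last group, of CRTC, class IIa HDAC, TOR and calcium signalling genes, had 10 of 11 (90.9%, against 46.9%), with a median signal of 30.2, against 27.3. Its highest was mef-2, a MEF2 transcription factor gene, with 54.2 at rank 115, 85 bp upstream, and 33.8 and 18.4 in the replicates. eat-16, which encodes a regulator of G protein signalling, had 47.8 at rank 236, with 22.7 and 27.2. daf-15, which encodes the TOR partner Raptor, had 45.5 at rank 304, with 33.6 and 15.3. None of these reached the signal of the upstream site of ftt-2 in either replicate. Because ftt-2 was chosen on its signal, this order is not a comparison.

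**Figure D5:**
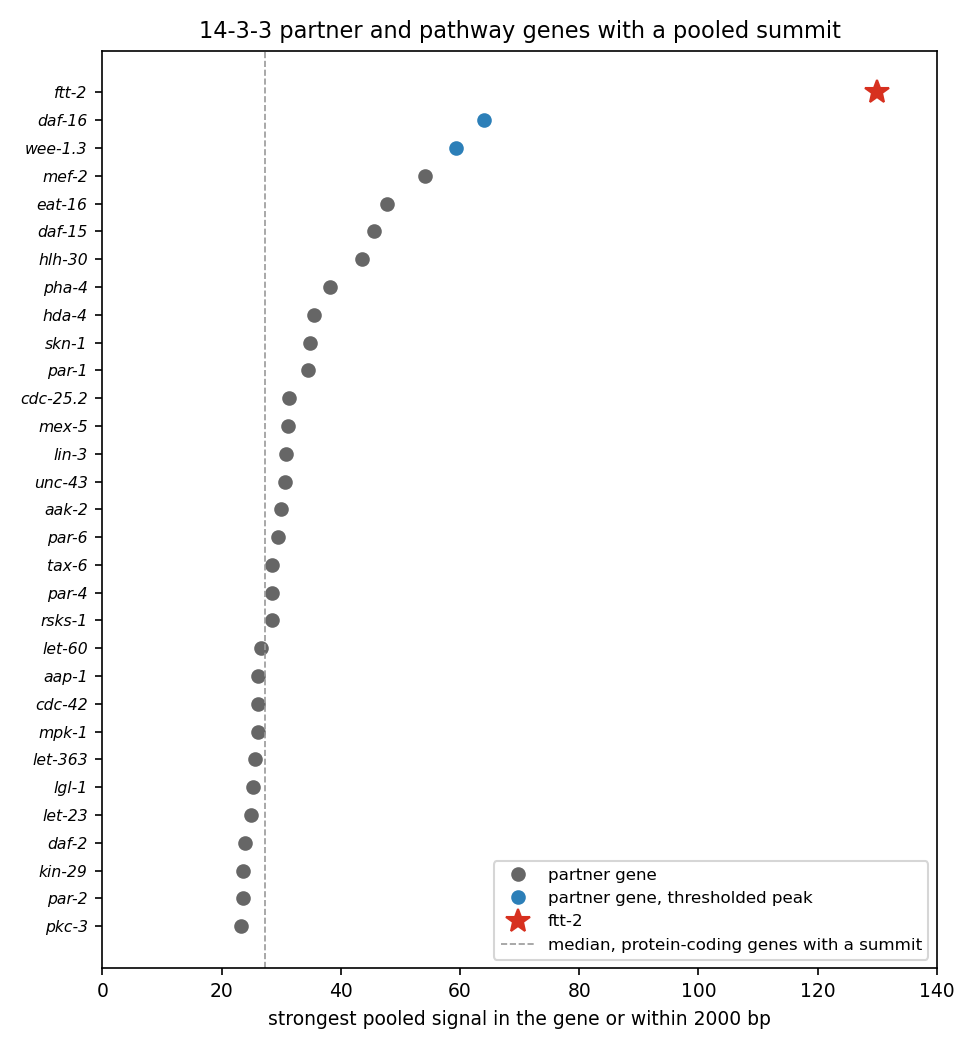
Strongest pooled signal (x axis) in the gene or within 2000 bp for 30 of the 31 listed 14-3-3 partner and pathway genes with a pooled summit, and for ftt-2 (red star); blue marks a thresholded peak, and the dashed line the median of 27.3 over protein-coding genes with a summit. ftt-2, which was chosen on its signal, stands at 130.0, and daf-16, at 64.0, is the highest of the others.

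The genes of the transgene give no reading of the tagged locus here. nhr-11 had 0 summits within 2000 bp in every list, and unc-119 had 2 pooled, 6 replicate 1 and 3 replicate 2 summits, with a highest pooled signal of 31.7 and 0 thresholded.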

How the data were processed

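ChIP-seq of eGFP-NHR-11 was deposited as peak lists on ce11 (WBcel235) for 2 biological replicates and for both pooled, with a thresholded list. The deposited signal of each peak (the authors' caller's unit), its deposited −log10 q-value, turned back into a false discovery rate, and the summit offset, an other measure deposited with each peak, were used as they stand. Each replicate and pooled list reaches into background regions, per the deposited file descriptions. Aligner, caller, settings and thresholds are not given in the sources used here. No read counts were used, so depth and counting intervals are unknown. The control that the labels list was not used here, and the ce10 lists were not used.

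Summits were placed in genes of the Ensembl 115 annotation, counted from 1, with a window of 2000 bp. Peaks of different lists were matched where they shared at least 1 bp. Sequence came from RefSeq WBcel235, and BLAST 2.17.0 (word size 11, E-value 0.001) sought matches. Summit assignment was tested on simulated data. Python 3.11.15, pandas 2.3.3, numpy 2.4.6 and Biopython 1.88 were used. The members and lists were chosen with earlier results of these data known. Named genes were the 2 members, genes within 2000 bp of their peaks, the 5 listed partners with the highest pooled signal, and the 5 genes nearest in signal pattern. The transgene's genes, the next coding genes and the other partners were named after their values were seen. The search for close pairs and the pathway groups were chosen after the values were seen. The value of 1 listed partner gene is not reported here.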

Additional observations from a re-analysis of the deposited data

How the results depend on the processing

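Of 30 alternatives, 19 left the value as it was or close to it, 11 moved it and 0 reversed a sign. Counting the gene body alone left 1 pooled peak at ftt-2, with a signal of 23.5. Leaving out a replicate meant reading the list of the other replicate alone. It gave a strongest ftt-2 signal of 60.6 to 69.3, in the unit of 1 replicate, and a rank of 4 to 5. Ranked by the −log10 q-value, that peak was at rank 1, tied with the others among 27. Of the 3 pooled peaks at ftt-2 matched in both replicates, 2 remained with summits within 100 bp, without the strong upstream peak. With replicate peaks of the top 2000 alone, 2 also remained, without the 3′ UTR peak. Both changes were counted among the 19. At par-5 the count of pooled peaks was 1 with a window of 5000 bp and 1 when peaks were placed by overlap. The lists of the single replicates gave 1 in replicate 1 and 6 in replicate 2. These are the replicate peaks described above and not pooled peaks, and the replicate lists reach lower signals than the pooled list. With the thresholded list, 2 genes of the partner list had a summit. The log2 ratio at ftt-2 was −0.45 and −0.41 after scaling each list, within the spread over thresholded peaks. With no pooled peak, par-5 has no pooled signal, rank, overlap or ratio to vary. No paired analysis was possible because the 2 replicates form 1 group. Limits are the unknown depth, 2 replicates, a control not used here and a pair of genes chosen on these signals.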
